A study of Homo sapiens with 9 samples.

Results

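The genes described here are 44 genes of the cell cycle and of mitosis, chosen by name from their known roles: cyclins and cyclin-dependent kinases (CDKs), CDK inhibitors, replication genes and genes of mitotic entry, spindle and mitotic exit. They were chosen with earlier results of these data known, so their shares of calls are descriptive. All 44 were among the 26364 genes listed, and 43 of them were among the 13704 genes with enough counts to test. They were measured by RNA sequencing of MDA-MB-231 cells, an established human triple-negative breast cancer line, in 9 libraries. The study asked how GLO1 loss changes the transcripts of these cells. GLO1 encodes the enzyme that detoxifies methylglyoxal, a reactive by-product of glycolysis. One group of 3 libraries came from shGLO1#1 cells and another 3 from shGLO1#2 cells, both stably carrying a short hairpin RNA against GLO1, and the other 3 from shNT cells, which carried a non-targeting hairpin and served as the control. Each condition was 1 clone, and p-values here reflect how libraries of 1 clone vary, not how clones made anew would vary. The sources used here do not say whether a replicate number marks a separate culture.

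Cells pass from G1 into DNA synthesis when D-type and E-type cyclins with their kinases switch off the retinoblastoma protein, which frees E2F factors to transcribe replication genes. Later in the cycle the MuvB complex, with B-MYB and FOXM1, transcribes mitotic genes, and the anaphase-promoting complex ends mitosis by degrading cyclin B. Most of these transcripts therefore rise and fall with the cycle, and in dividing cultures their levels follow the share of cells in each phase.

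GLO1 averaged 65.4 ± 0.955 CPM (counts-per-million of the normalized library size) in shGLO1#1 cells and 14.7 ± 0.760 CPM in shGLO1#2 cells, against 317 ± 5.63 CPM in shNT cells (SD, n = 3 libraries each), so every library carried its label's silencing. The libraries held 15314238 to 18495576 counts on genes. The 44 genes took 0.841 to 0.893% of these counts in shGLO1#1 libraries, 0.912 to 0.993% in shGLO1#2 libraries and 0.926 to 1.02% in shNT libraries. The 6 genes taken as marks of the line, VIM, CD44, KRT18, KRT8, KRT7 and EGFR, were detected in all libraries and summed to 5566 to 6456 CPM in shGLO1#1, 6842 to 7180 CPM in shGLO1#2 and 6567 to 7460 CPM in shNT libraries. ESR1, PGR and GATA3 had been taken as absent or near 0 in this line. ESR1 and PGR were near 0, but GATA3 was detected, with averages between 6.74 and 8.14 CPM. Of the markers of other cell types, CD3E, CDH5, DCN and PDGFRA were at or near 0. The leukocyte gene PTPRC averaged 1.21 CPM in shGLO1#1 and 2.57 CPM in shGLO1#2 cells, against 8.37 CPM in shNT cells. The endothelial gene PECAM1 averaged 2.71 CPM in shGLO1#1 and 3.21 CPM in shGLO1#2 cells, against 0.856 CPM in shNT cells. The part of these markers in the results was not tested.

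Promoter sequences are shown because mitotic and replication genes carry different known elements near their starts. RefSeq promoters (GRCh38.p14, 250 bases before to 50 after a gene's start) were matched for 34 of the 44 genes, and 3 elements were searched on both strands. The first was the CHR, the site of the MuvB complex, with the letters TTTGAA. The second was the CCAAT box, and the third the E2F-type site, with the letters TTTCCCGC or TTTGGCGC or TTTCGCGC. Capitals mark the matches, which read TTCAAA for a CHR, ATTGG for a CCAAT box and GCGGGAAA for an E2F-type site where they lie on the other strand. In MKI67 the CHR nearest the start and the CCAAT box beside it share 1 base. The 5 mitotic examples below each hold a CHR and a CCAAT box.
CCNB2 (chr15:59105021-59105126, plus strand): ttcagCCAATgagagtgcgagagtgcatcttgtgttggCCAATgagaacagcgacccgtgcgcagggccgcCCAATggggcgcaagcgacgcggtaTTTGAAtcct
PLK1 (chr16:23678811-23678869, plus strand): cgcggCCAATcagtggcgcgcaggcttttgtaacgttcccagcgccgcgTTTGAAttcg
KIF11 (chr10:92593072-92593110, plus strand): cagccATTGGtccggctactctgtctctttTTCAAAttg
CDC20 (chr1:43358876-43358935, plus strand): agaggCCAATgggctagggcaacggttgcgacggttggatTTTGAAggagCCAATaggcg
MKI67 (chr10:128126441-128126526, minus strand): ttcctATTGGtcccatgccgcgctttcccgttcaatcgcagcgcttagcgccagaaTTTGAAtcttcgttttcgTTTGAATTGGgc

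The 4 examples from the G1/S and replication genes hold an E2F-type site.
CDC25A (chr3:48188450-48188479, minus strand): actgATTGGtggattccgTTTGGCGCcaac
CDC6 (chr17:40287824-40287895, plus strand): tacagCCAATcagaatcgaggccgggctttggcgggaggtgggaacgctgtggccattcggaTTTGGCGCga
CDT1 (chr16:88803744-88803769, plus strand): cagggcgcccGCGGGAAAtttggcgg
TYMS (chr18:657605-657629, plus strand): gggacggccGCGGGAAAaggcgcgc

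Among the 16 matched genes of mitotic entry, spindle and chromosomes, 9 held a CHR (56.2%) and 13 a CCAAT box (81.2%), against 15.4% and 35.7% of all 27305 promoters. Both elements stood together in 8 of the 16, against 6.08% of all promoters. None of the other 18 matched genes held a CHR, while 9 of them held an E2F-type site (50%), against 2.79% of all promoters. Of the 8 matched replication genes, 7 held an E2F-type site. A match describes letters in these windows and not a bound site.

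In shGLO1#1 cells the cell cycle genes were mostly lower than in shNT cells, the mitotic ones included. Of the 43 genes tested, 23 fell and 3 rose at an adjusted p under 0.05, with edgeR's quasi-likelihood test and adjustment over all genes. Over all genes tested, 23.1% fell and 22.6% rose, so that the 53.5% of cell cycle genes that fell lay above the background. The median log2 fold change was -0.21 over the 43 genes and 0.00 over all genes. CDT1 fell and CCND2 rose with an absolute log2 fold change over 1 as well, as did 2.75% of all genes downward and 5.98% upward (8.73% together). All 3 shGLO1#1 libraries lay below all 3 shNT libraries for 25 of the 43 genes and above them for 2, against 28.0% below and 28.0% above among all genes (55.9% together). The 3 genes that rose were CCND2, CDK6 and CDKN2C, and CCND2 was the 1 that still did without shNT replicate 1, without shNT replicate 2 or without shGLO1#1 replicate 3. The shGLO1#1 libraries also had more alignments on no gene, 14.5 to 15.2% against 12.9 to 13.3% in shNT libraries, and the part of this in the result was not tested. Scaling by library totals alone moved the median of all genes to 0.07 and the share of lower genes among all calls to 37.8%, against 50.5% with TMM scaling, and left 19 of the 43 genes lower. In bulk RNA, fewer cells in a phase and less RNA per cell cannot be told apart.

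**Figure D1:**
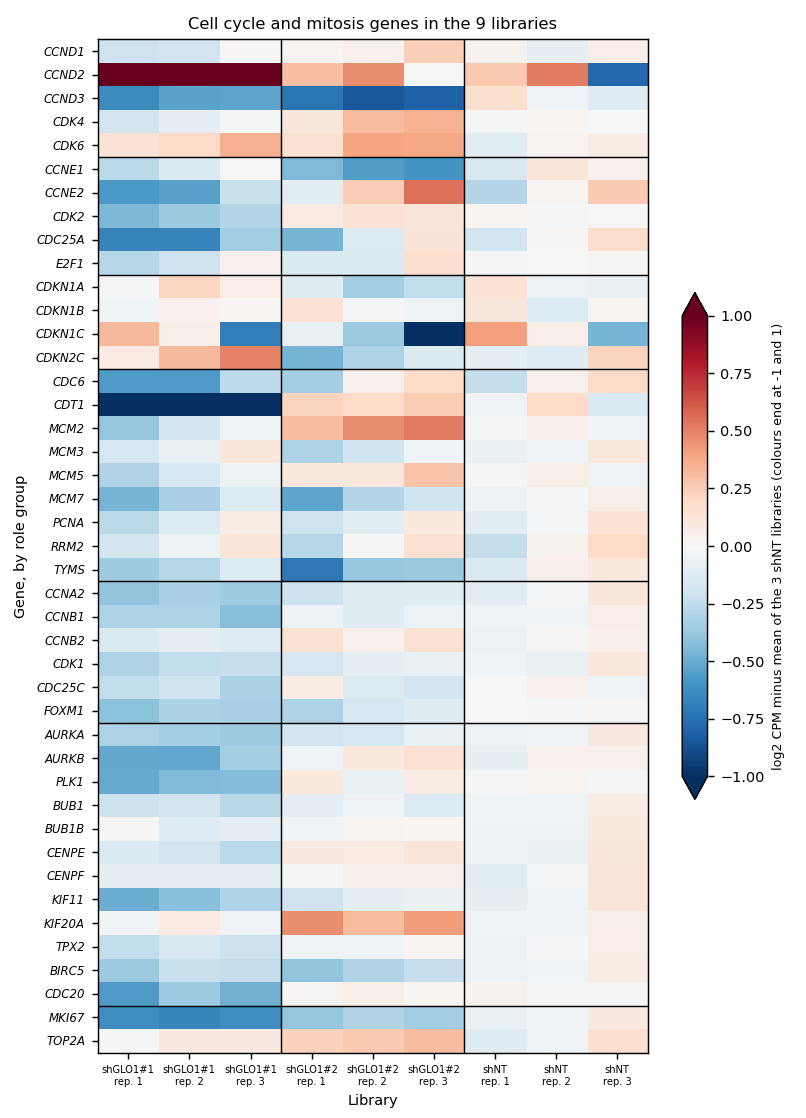
Heat map of the 43 tested genes (rows, grouped by role from G1 cyclins at the top to MKI67 and TOP2A at the bottom) in the 9 libraries (columns), coloured by log2 CPM minus the mean of the 3 shNT libraries. The shGLO1#1 columns are blue over most mitotic rows, and CDT1 and CCND2 pass the ends of the colour scale there.

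In shGLO1#2 cells, 8 of the 43 genes fell and 5 rose against shNT cells, while 19.8% of all genes fell and 18.3% rose. The share that fell, 18.6%, was near the background. The 8 lower genes were CCND3, CCNE1, CDKN1A, MCM7, TYMS, FOXM1, BIRC5 and MKI67, and the 5 higher genes were CDK4, CDK6, MCM2, KIF20A and TOP2A. The median log2 fold change was -0.03 over the 43 genes and 0.00 over all genes. No gene of the 43 passed the log2 limit of 1 as well, with edgeR or with DESeq2, the largest called change being that of CCND3 (-0.80). Among all genes 2.59% passed it downward and 5.09% upward (7.68% together). All shGLO1#2 libraries lay below all shNT libraries for 12 of the 43 genes and above them for 7, against 24.3% and 23.0% of all genes (47.3% together). Same-numbered libraries of shGLO1#2 and shNT cells deviated together from their group means, although the sources used here do not say why. With the number as a block, fitted over all 9 libraries, 13 genes fell and 8 rose. The genes added were CCNE2 (log2 fold change 0.23), CDT1 (0.22) and MCM5 (0.17) among the higher ones. Among the lower ones they were CDKN2C (-0.31), MCM3 (-0.18), CCNA2 (-0.16), AURKA (-0.14) and KIF11 (-0.12), with edgeR adjusted p between 0.000612 and 0.0314 for these 8 genes. Both comparisons used the same shNT libraries, so their values are given side by side and not as separate evidence.

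**Figure D2:**
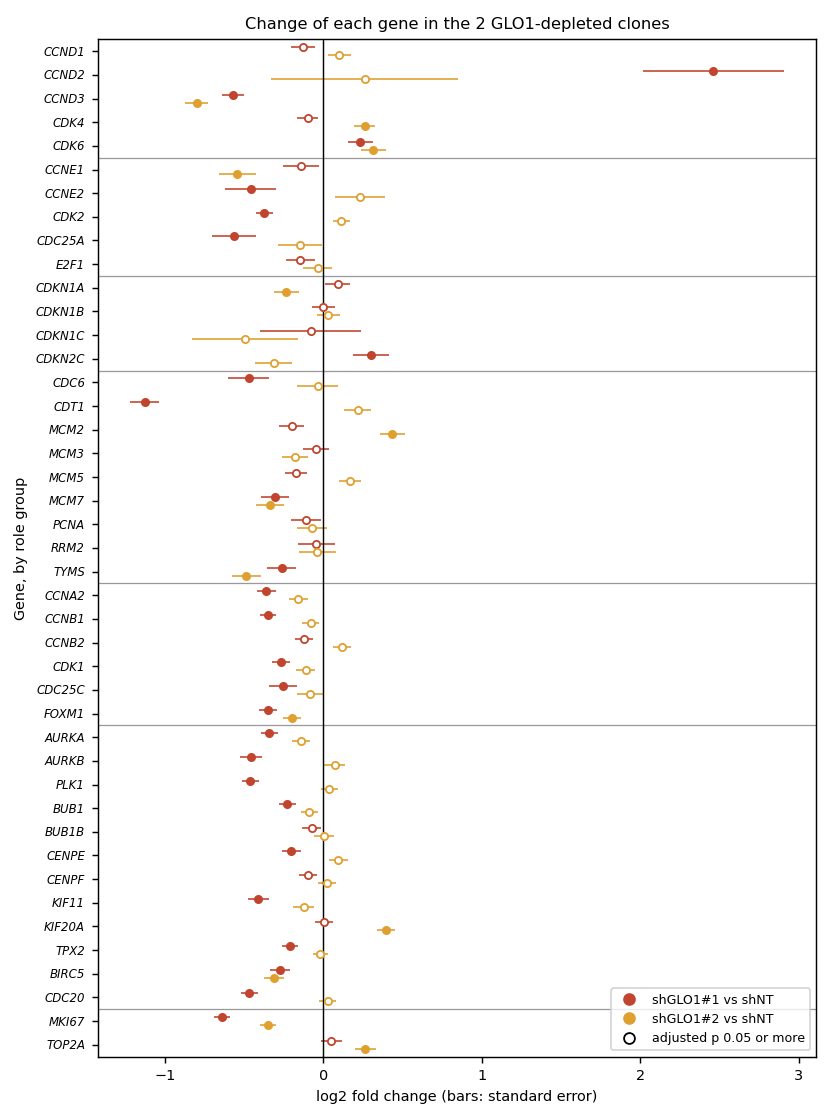
Log2 fold change against shNT (x axis, bars are standard errors) of each of the 43 genes (y axis, by role) in shGLO1#1 cells (red) and shGLO1#2 cells (yellow). Filled points passed an adjusted p of 0.05. Most mitotic points of shGLO1#1 lie left of 0, while most of those of shGLO1#2 lie close to it, with BIRC5 at -0.31 and KIF20A at 0.40.

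The D-type cyclins and their kinases start the cycle, and they moved in different directions. CCND1, the cyclin D1 gene, had 572, 580 and 665 CPM in shGLO1#1 libraries, 673, 680 and 778 CPM in shGLO1#2 libraries, and 678, 617 and 691 CPM in shNT libraries. The ranges of both clones overlapped that of shNT, with the log2 fold change in shGLO1#1 at -0.13 (SE 0.07, edgeR adjusted p = 0.17) and in shGLO1#2 at 0.10 (SE 0.07, edgeR adjusted p = 0.301). The shGLO1#1 value passed the threshold with the replicate block (edgeR adjusted p = 0.0261). The block has little ground there, as same-numbered shGLO1#1 and shNT libraries correlated at only -0.03, 0.06 and 0.25.
CCND3, the cyclin D3 gene, had 119, 128 and 129 CPM in shGLO1#1 libraries and 112, 104 and 106 CPM in shGLO1#2 libraries, against 208, 182 and 170 CPM in shNT libraries. All libraries of both clones lay below all shNT libraries, and CCND3 fell by 0.57 on the log2 scale in shGLO1#1 (SE 0.07, edgeR adjusted p = 2.16e-05) and by 0.80 in shGLO1#2 (SE 0.07, edgeR adjusted p = 1.63e-06).

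CCND2, the cyclin D2 gene, was close to absent, with 46, 50 and 19 counts in shGLO1#1 libraries and 8, 10 and 6 counts in shGLO1#2 libraries, against 7, 9 and 3 counts in shNT libraries. These are 2.84, 2.72 and 1.08 CPM in shGLO1#1, 0.487, 0.558 and 0.372 CPM in shGLO1#2, and 0.470, 0.587 and 0.166 CPM in shNT libraries. The shGLO1#1 libraries lay above all others, replicate 3 being the lowest of them. The log2 fold change was 2.46 in shGLO1#1 (SE 0.44, edgeR adjusted p = 0.000505) and 0.26 in shGLO1#2 (SE 0.59, edgeR adjusted p = 0.764). The kinases CDK4 and CDK6, which D-type cyclins activate, rose in shGLO1#2 by 0.26 (SE 0.07) and 0.31 (SE 0.08) on the log2 scale. CDK6 also rose in shGLO1#1, by 0.23 (SE 0.08, edgeR adjusted p = 0.0263), a call that ended without shNT replicate 1, shNT replicate 2 or shGLO1#1 replicate 3 (edgeR adjusted p of 0.108, 0.0509 and 0.121). CCND2 overlaps CCND2-AS1 and CDK4 overlaps TSPAN31 on the opposite strand. The kit did not mark strand, so reads on the exon stretches that a pair shares cannot be told apart.

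Of the 5 genes of the G1/S switch, 3 fell in shGLO1#1 cells (CCNE2, CDK2 and CDC25A) and 1 fell in shGLO1#2 cells (CCNE1). The shares were 60% in shGLO1#1, against 23.1% of all genes, and 20% in shGLO1#2, near the 19.8% of all genes. CDC25A, a phosphatase that activates CDK2, had 33.1, 33.1 and 41.3 CPM in shGLO1#1 libraries and 38.1, 48.0 and 57.8 CPM in shGLO1#2 libraries, against 46.2, 53.1 and 59.6 CPM in shNT libraries. The shGLO1#1 libraries lay below all shNT libraries and those of shGLO1#2 overlapped them. CDC25A fell by 0.57 on the log2 scale in shGLO1#1 (SE 0.14, edgeR adjusted p = 0.00441), and in shGLO1#2 its log2 fold change was -0.15 (SE 0.14, edgeR adjusted p = 0.43).
CCNE1, the cyclin E1 gene, had 11.4, 12.4 and 13.6 CPM in shGLO1#1 libraries and 10.1, 9.27 and 8.998 CPM in shGLO1#2 libraries, against 12.2, 14.9 and 14.1 CPM in shNT libraries. All 3 shGLO1#2 libraries lay below all shNT libraries, and those of shGLO1#1 overlapped them. CCNE1 fell by 0.54 on the log2 scale in shGLO1#2 (SE 0.12, edgeR adjusted p = 0.00205), and in shGLO1#1 the log2 fold change was -0.14 (SE 0.11, edgeR adjusted p = 0.327).

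CDK2, the partner of cyclin E, fell by 0.37 on the log2 scale in shGLO1#1 (SE 0.05, edgeR adjusted p = 7.58e-05). CCNE2, the cyclin E2 gene, fell by 0.46 there (SE 0.16, edgeR adjusted p = 0.0332), although its libraries overlapped those of shNT. The CCNE2 call ended without shNT replicate 2 or 3 and without shGLO1#1 replicate 1 or 2, with edgeR adjusted p between 0.0714 and 0.164, and with library totals alone (0.0629). E2F1, which transcribes the replication genes, had 83.6, 87.9 and 104.8 CPM in shGLO1#1 libraries and 92.0, 92.1 and 114 CPM in shGLO1#2 libraries, against 101, 102 and 102 CPM in shNT libraries. Both clones overlapped shNT, with log2 fold changes of -0.14 in shGLO1#1 (SE 0.09, edgeR adjusted p = 0.221) and -0.03 in shGLO1#2 (SE 0.09, edgeR adjusted p = 0.808). The first passed the threshold with the replicate block (edgeR adjusted p = 0.0446), with the limit of the block given for CCND1. CDK2 overlaps PMEL and CCNE2 overlaps INTS8 on the opposite strand.

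The CDK inhibitors hold cells in G1, and of the 4 that could be tested 1 rose in shGLO1#1 cells and 1 fell in shGLO1#2 cells. Both shares, 25%, were near those of all genes, of which 22.6% rose in shGLO1#1 and 19.8% fell in shGLO1#2. CDKN1A, the p21 gene and a target of p53, had 81.8, 95.9 and 86.2 CPM in shGLO1#1 libraries and 75.8, 65.5 and 69.3 CPM in shGLO1#2 libraries, against 90.4, 79.2 and 78.2 CPM in shNT libraries. The shGLO1#2 libraries were the lowest and did not overlap those of shNT. CDKN1A fell by 0.23 on the log2 scale in shGLO1#2 (SE 0.08, edgeR adjusted p = 0.0316) and in shGLO1#1 it stood at a log2 fold change of 0.09 (SE 0.08, edgeR adjusted p = 0.357). The call in shGLO1#2 ended without shNT replicate 1, shGLO1#2 replicate 2 or shGLO1#2 replicate 3 (edgeR adjusted p of 0.141, 0.145 and 0.0842).

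CDKN2C, the gene of p18, an inhibitor of CDK4 and CDK6, had 53.3, 63.2 and 71.2 CPM in shGLO1#1 libraries and 36.5, 40.6 and 45.5 CPM in shGLO1#2 libraries, against 47.2, 46.2 and 58.7 CPM in shNT libraries. The shGLO1#2 libraries lay below all shNT libraries, and those of shGLO1#1 overlapped them. CDKN2C rose by 0.30 on the log2 scale in shGLO1#1 (SE 0.12, edgeR adjusted p = 0.0468), and this call was lost when any 1 of shNT replicates 1 and 2, shGLO1#1 replicates 2 and 3 and shGLO1#2 replicate 2 was left out, and with DESeq2's size factors (edgeR adjusted p of 0.0501 to 0.203). In shGLO1#2 its log2 fold change was -0.31 (SE 0.12, edgeR adjusted p = 0.0506), which passed the threshold with the replicate block (edgeR adjusted p = 0.000612). CDKN1B (p27) and CDKN1C (p57) did not pass the test in either clone. CDKN2B (p15) had no count in any library, which allows a level of up to 0.163 to 0.202 CPM (3 counts in a library, counting error only).

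All 9 replication genes had negative log2 fold changes in shGLO1#1 cells, from -1.13 to -0.04, and 4 of them fell (CDC6, CDT1, MCM7 and TYMS). In shGLO1#2 cells MCM2 rose and MCM7 and TYMS fell. The 44.4% that fell in shGLO1#1 compare with 23.1% of all genes. In shGLO1#2 22.2% fell and 11.1% rose, against 19.8% and 18.3% of all genes. CDT1, which loads the MCM helicase onto origins together with CDC6, showed the largest fall among the 43 genes in shGLO1#1 cells. It had 22.3, 24.9 and 22.1 CPM in shGLO1#1 libraries and 58.9, 57.5 and 60.1 CPM in shGLO1#2 libraries, against 49.1, 57.6 and 45.2 CPM in shNT libraries. All shGLO1#1 libraries were below 25 CPM and all others above 45 CPM. CDT1 fell by 1.13 on the log2 scale in shGLO1#1 (SE 0.09, edgeR adjusted p = 4.84e-07), that is by 54.2%. In shGLO1#2 its log2 fold change was 0.22 (SE 0.08, edgeR adjusted p = 0.0568), which passed the threshold with the replicate block (edgeR adjusted p = 0.014).

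TYMS, which makes thymidylate for DNA synthesis, had 201, 211 and 234 CPM in shGLO1#1 libraries and 157, 198 and 198 CPM in shGLO1#2 libraries, against 233, 266 and 275 CPM in shNT libraries. Every shGLO1#2 library lay below the shNT libraries, and those of shGLO1#1 overlapped them. TYMS fell by 0.48 on the log2 scale in shGLO1#2 (SE 0.09, edgeR adjusted p = 0.000859) and by 0.26 in shGLO1#1 (SE 0.09, edgeR adjusted p = 0.0301). The shGLO1#1 call was lost when any 1 of shNT replicates 2 and 3 and shGLO1#1 replicates 1 and 2 was left out, and with library totals alone (edgeR adjusted p of 0.087 to 0.12). TYMS overlaps ENOSF1 and TYMSOS on the opposite strand.

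The MCM genes encode the replicative helicase, and they did not move together. MCM7 fell by 0.30 on the log2 scale in shGLO1#1 (SE 0.09) and by 0.33 in shGLO1#2 (SE 0.09), the first call ending without shGLO1#1 replicate 1 (edgeR adjusted p = 0.0627). MCM2 rose by 0.44 in shGLO1#2 (SE 0.08, edgeR adjusted p = 0.000652), and MCM3 and MCM5 did not pass the test against shNT in either clone without the replicate block. With the block in shGLO1#2, MCM3 fell by 0.18 and MCM5 rose by 0.17 (edgeR adjusted p = 0.00236 and 0.0214). With it in shGLO1#1, MCM2 (-0.20) and MCM5 (-0.18) passed the threshold (edgeR adjusted p = 0.00617 and 0.0151, against 0.0572 and 0.0636 without it). Same-numbered libraries of shGLO1#1 and shNT correlated at only -0.03, 0.06 and 0.25, so the block has little ground in this comparison. CDC6 fell by 0.47 in shGLO1#1 (SE 0.13, edgeR adjusted p = 0.00937), with an adjusted p of 0.0509 without shNT replicate 3. PCNA, the sliding clamp, and RRM2, a subunit of ribonucleotide reductase, did not pass the test in either clone, nor with the block in shGLO1#2. With the block in shGLO1#1, and so with the same limit, PCNA (-0.11) passed the threshold (edgeR adjusted p = 0.0377, against 0.369 without it). RRM2 was not called. MCM7 overlaps AP4M1 and MCM2 overlaps TPRA1 on the opposite strand.

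Of the 6 genes of mitotic entry, 5 fell in shGLO1#1 cells (all but CCNB2), and FOXM1 alone fell in shGLO1#2 cells. The shares were 83.3% in shGLO1#1, against 23.1% of all genes, and 16.7% in shGLO1#2, near the 19.8% of all genes. None of the 6 rose in shGLO1#1, at an adjusted or an unadjusted p under 0.05 or with DESeq2. CCNA2, the cyclin A2 gene, had 162, 171 and 167 CPM in shGLO1#1 libraries and 183, 196 and 196 CPM in shGLO1#2 libraries, against 199, 212 and 231 CPM in shNT libraries. Both clones lay below shNT with no overlap, shGLO1#1 the lower of them. CCNA2 fell by 0.36 on the log2 scale in shGLO1#1 (SE 0.06, edgeR adjusted p = 0.000254), and its log2 fold change in shGLO1#2 was -0.16 (SE 0.06, edgeR adjusted p = 0.0511, and 0.0101 with the replicate block).

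CDK1, the kinase that drives cells into mitosis, had 189, 198 and 199 CPM in shGLO1#1 libraries and 208, 219.8 and 224 CPM in shGLO1#2 libraries, against 228, 224 and 253 CPM in shNT libraries. The shGLO1#1 libraries lay below all shNT libraries. CDK1 fell by 0.27 on the log2 scale in shGLO1#1 (SE 0.06, edgeR adjusted p = 0.00191), and in shGLO1#2 the log2 fold change was -0.11 (SE 0.06, edgeR adjusted p = 0.144).
FOXM1, the transcription factor of mitotic genes, had 299.6, 318 and 318 CPM in shGLO1#1 libraries and 320.3, 354 and 366 CPM in shGLO1#2 libraries, against 399, 392 and 401 CPM in shNT libraries. Neither clone overlapped shNT, whose libraries differed little. FOXM1 fell by 0.35 on the log2 scale in shGLO1#1 (SE 0.06, edgeR adjusted p = 0.000182) and by 0.20 in shGLO1#2 (SE 0.06, edgeR adjusted p = 0.0123), the second call ending without shGLO1#2 replicate 1 (edgeR adjusted p = 0.0599).

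CCNB1, the cyclin B1 gene and partner of CDK1, fell by 0.35 on the log2 scale in shGLO1#1 (SE 0.05, edgeR adjusted p = 0.000114). CDC25C, which removes the inhibitory phosphates from CDK1, fell by 0.25 there (SE 0.09, edgeR adjusted p = 0.0286). The CDC25C call was lost when any 1 of shNT replicates 1 and 2 and shGLO1#1 replicates 1 and 3 was left out, and with library totals alone (edgeR adjusted p of 0.058 to 0.113). CCNA2 overlaps EXOSC9, FOXM1 overlaps ITFG2 and CDC25C overlaps FAM53C on the opposite strand.

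Of the 12 genes of the spindle, kinetochore and mitotic exit, 9 fell in shGLO1#1 cells, while in shGLO1#2 cells BIRC5 fell and KIF20A rose. The share that fell in shGLO1#1 was 75%, against 23.1% of all genes. In shGLO1#2 8.33% fell and 8.33% rose, under the 19.8% and 18.3% of all genes. None of the 12 rose in shGLO1#1, at an adjusted or an unadjusted p under 0.05 or with DESeq2. PLK1, the kinase that matures centrosomes and spindles, had 104, 109 and 109 CPM in shGLO1#1 libraries and 158, 141 and 156 CPM in shGLO1#2 libraries, against 147, 150.4 and 146 CPM in shNT libraries. The shGLO1#1 libraries stood apart from the other 6. PLK1 fell by 0.46 on the log2 scale in shGLO1#1 (SE 0.06, edgeR adjusted p = 1.7e-05), and in shGLO1#2 the log2 fold change was 0.04 (SE 0.05, edgeR adjusted p = 0.628).

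CDC20, which activates the anaphase-promoting complex, had 218, 250.1 and 231 CPM in shGLO1#1 libraries and 324, 335 and 326 CPM in shGLO1#2 libraries, against 330.2, 317 and 319.7 CPM in shNT libraries. Again only the shGLO1#1 libraries lay below the rest. CDC20 fell by 0.47 on the log2 scale in shGLO1#1 (SE 0.05, edgeR adjusted p = 1.36e-05), and in shGLO1#2 the log2 fold change was 0.03 (SE 0.05, edgeR adjusted p = 0.729). AURKB, the kinase of the chromosomal passenger complex, fell by 0.45 in shGLO1#1 (SE 0.07), and KIF11, the motor that separates spindle poles, by 0.41 (SE 0.07). AURKA, the centrosome kinase, fell by 0.34 (SE 0.05) and BIRC5, the survivin gene, by 0.27 (SE 0.06) in shGLO1#1.

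Smaller falls in shGLO1#1 were those of BUB1, a checkpoint kinase (by 0.23 on the log2 scale, SE 0.05), TPX2, which activates AURKA on the spindle (by 0.21, SE 0.05), and CENPE, a kinetochore motor (by 0.20, SE 0.06). The CENPE call ended without shNT replicate 3, without shGLO1#1 replicate 3 and with library totals alone (edgeR adjusted p of 0.0539 to 0.0909). BUB1B and CENPF, both of the kinetochore, did not pass the test in either clone. In shGLO1#2 cells BIRC5 fell by 0.31 (SE 0.06, edgeR adjusted p = 0.00111) and KIF20A, a motor of cytokinesis, rose by 0.40 (SE 0.06, edgeR adjusted p = 9.02e-05). PLK1 overlaps ERN2, and KIF20A overlaps BRD8 and CDC23, on the opposite strand.

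MKI67 and TOP2A, both widely used to mark dividing cells, gave different calls. MKI67, the gene of the Ki-67 antigen, had 633, 617 and 636 CPM in shGLO1#1 libraries and 749, 790.5 and 767 CPM in shGLO1#2 libraries, against 933, 960 and 1040 CPM in shNT libraries. The 3 groups did not overlap. MKI67 fell by 0.64 on the log2 scale in shGLO1#1 (SE 0.05, edgeR adjusted p = 5.25e-07), that is by 35.7%, and by 0.35 in shGLO1#2 (SE 0.05, edgeR adjusted p = 0.000122), that is by 21.4%. TOP2A, the topoisomerase that untangles chromosomes, had 786, 841 and 841 CPM in shGLO1#1 libraries and 927, 952 and 986 CPM in shGLO1#2 libraries, against 725, 772 and 887 CPM in shNT libraries. All shGLO1#2 libraries lay above all shNT libraries, and the shGLO1#1 libraries overlapped them. TOP2A rose by 0.26 in shGLO1#2 (SE 0.07, edgeR adjusted p = 0.00649), and in shGLO1#1 the log2 fold change was 0.05 (SE 0.07, edgeR adjusted p = 0.571).

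**Figure D3:**
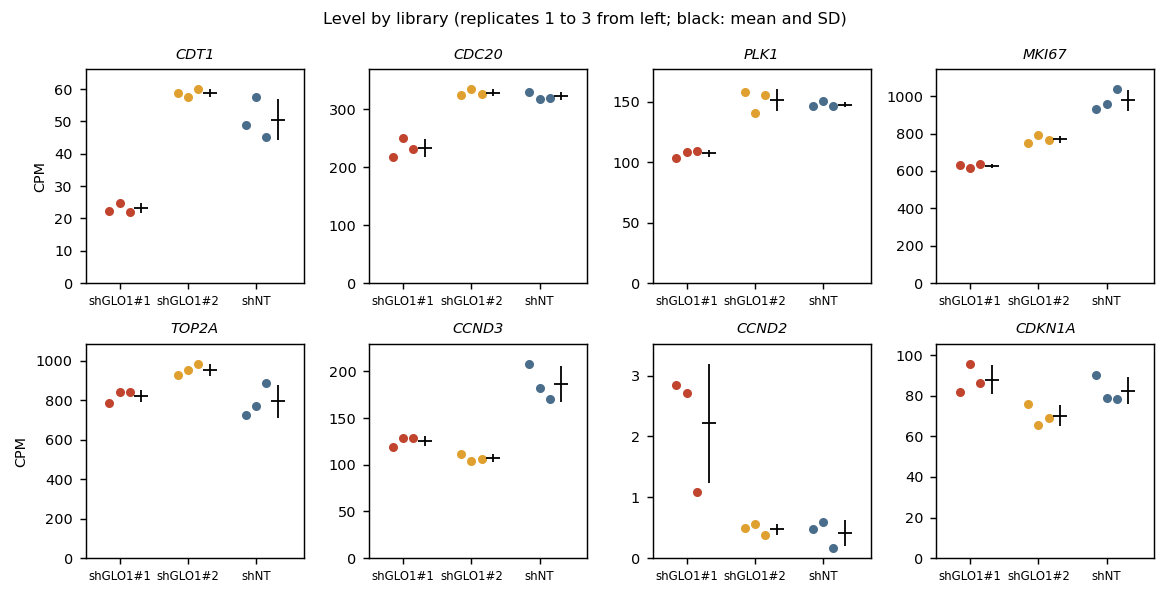
Level in CPM (y axis, from 0) of 8 genes in the 3 libraries of each group (x axis), with the mean and SD in black. CDT1, CDC20 and PLK1 are low in shGLO1#1 libraries alone, MKI67 and CCND3 are lower in both clones than in shNT, and all CCND2 values are under 3 CPM.

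Counted by promoter element, 5 of the 8 genes with a CHR and a CCAAT box fell in shGLO1#1 cells (CDK1, PLK1, KIF11, CDC20 and MKI67), and so did 6 of the 10 with an E2F-type site (CDC25A, CDC6, CDT1, MCM7, TYMS and CDK1). Both shares are close to the 53.5% that fell among all 43 cell cycle genes, against 23.1% of all genes. In shGLO1#2 cells MKI67 fell and TOP2A rose among the first 8, and MCM7 and TYMS fell and MCM2 rose among the second 10. Among all genes 19.8% fell and 18.3% rose there. CDT1 and TYMS carry the same 8 letters, GCGGGAAA, in the sequences above. CDT1 fell in shGLO1#1 alone and TYMS in both clones, its shGLO1#1 call being lost in the alternatives named above. The part of the elements in these changes was not tested.

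The clones were also compared with each other. In shGLO1#2 cells 25 of the 43 genes were higher and 5 lower than in shGLO1#1 cells, against 22.8% higher and 23.7% lower among all genes. The median log2 difference was 0.19 over the 43 genes and -0.01 over all genes. CDT1 was higher in shGLO1#2 by 1.35 (SE 0.09, edgeR adjusted p = 1.1e-07) and CCND2 lower by 2.20 (log2 difference -2.20, SE 0.42, edgeR adjusted p = 0.000805), both beyond the log2 limit of 1, which 3.33% of all genes passed upward and 3.75% downward (7.09% together). Among the other genes with the strongest calls, CDK2 was higher by 0.48 (SE 0.05), PLK1 by 0.50 (SE 0.06), CDC20 by 0.49 (SE 0.05), AURKB by 0.53 (SE 0.07) and MCM2 by 0.63 (SE 0.08) on the log2 scale. The libraries of these 5 genes did not overlap between the clones. All shGLO1#2 libraries lay above all shGLO1#1 libraries for 25 of the 43 genes and below them for 6, against 26.9% and 28.5% of all genes (55.4% together). The count of higher genes was 17 without shGLO1#1 replicate 1, and that of lower genes was 3 without shGLO1#1 replicate 3. As this comparison uses the libraries of both others, it is no further evidence for them.

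Averaged over each role group, the libraries showed a second pattern, which went with the replicate number. The mean of the 12 spindle and mitotic exit genes, as log2 CPM minus the shNT mean, was -0.29, -0.25 and -0.26 in shGLO1#1 libraries and -0.03, -0.01 and 0.03 in shGLO1#2 libraries, against -0.05, -0.02 and 0.07 in shNT libraries. The shGLO1#1 libraries lay close together and below the rest. The mean of the 9 replication genes was -0.43, -0.31 and -0.17 in shGLO1#1 libraries and -0.19, -0.02 and 0.10 in shGLO1#2 libraries, against -0.10, 0.04 and 0.06 in shNT libraries. Replicate 1 was the lowest library of all 3 groups for the replication genes, the 5 G1/S switch genes and the 12 spindle genes. The same held for MKI67 and TOP2A and for all 43 genes together, but not for every role group. Among the 4 CDK inhibitors replicate 1 was the highest library in shNT (0.14) and in shGLO1#2 (-0.13). This mean leans on CDKN1C, which had only 16 to 44 counts in these libraries. From replicate 1 to 3 it ran from 0.41 to -0.47 in shNT and from -0.08 to -1.05 in shGLO1#2. CDKN1A and CDKN1B were also highest in replicate 1 of both groups, while CDKN2C was highest in replicate 3 of both.

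**Figure D4:**
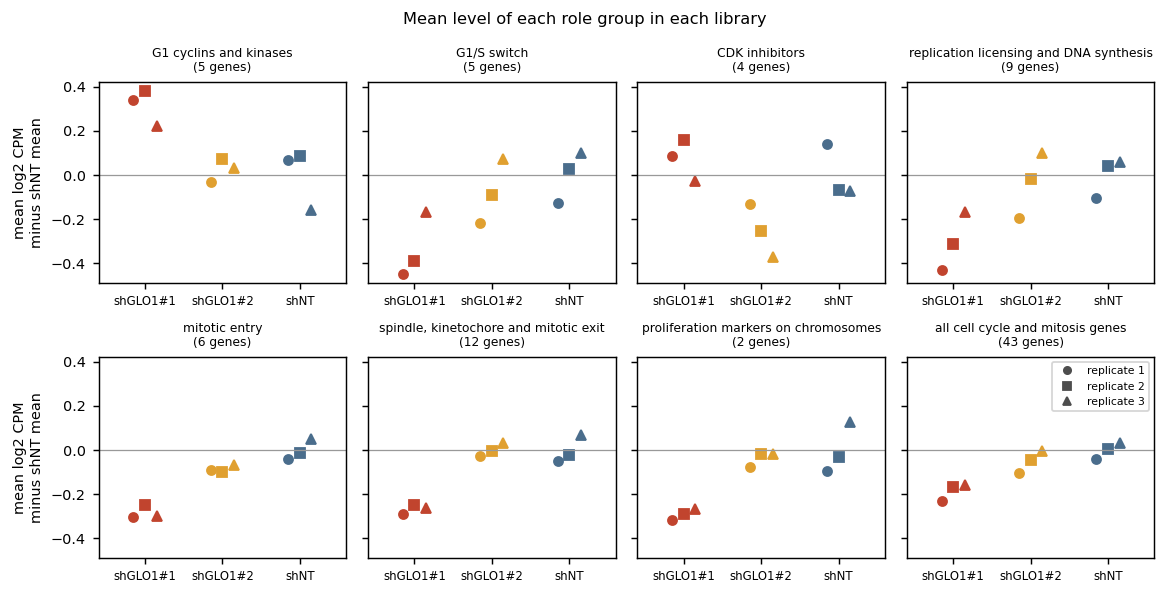
Mean log2 CPM minus the shNT mean (y axis) of each role group in each library (x axis, by group; circles, squares and triangles are replicates 1, 2 and 3). Mitotic entry and spindle genes lie near -0.3 in all shGLO1#1 libraries, and replication genes spread between replicates, from -0.43 to -0.17 in shGLO1#1. The G1 cyclins and kinases lie at 0.34, 0.38 and 0.22 in shGLO1#1, a mean that leans on the nearly absent CCND2 (2.59, 2.53 and 1.29). In these libraries CCND3 and CDK4 lay below the shNT mean and CDK6 above it.

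Other genes of the cell cycle were taken from 6 lists, of which 173 of 175 genes could be tested. These lists too were chosen with earlier results of these data known. In shGLO1#1 cells 82 of them fell (47.4%, against 23.1% of all genes) and 13 rose (7.51%, against 22.6%), with a median log2 fold change of -0.18. In shGLO1#2 cells 20 fell (11.6%, against 19.8% of all genes) and 32 rose (18.5%, near the 18.3% of all genes), with a median of 0.06. The count of genes that rose in shGLO1#1 was 7 without shNT replicate 1, 6, 8 and 6 without shGLO1#1 replicates 1, 2 and 3, and 22 with library totals alone, and the count that rose in shGLO1#2 was 19 without shNT replicate 1.
Of 53 further mitosis genes, 41 fell (77.4%, against 23.1% of all genes) and none rose in shGLO1#1 (median -0.29). There 1 rose at an unadjusted p under 0.05 and none with DESeq2. In shGLO1#2, 10 of them fell and 9 rose (median 0.03), shares of 18.9% and 17% that were near those of all genes. CEP55, needed for the final cut of cytokinesis, averaged 188 ± 10.3 CPM in shGLO1#1 and 233 ± 5.87 CPM in shGLO1#2, against 314 ± 11.3 CPM in shNT cells (SD, n = 3 each). It fell by 0.74 on the log2 scale in shGLO1#1 and by 0.43 in shGLO1#2. BUB3, of the spindle checkpoint, fell by 0.52 and 0.39 in shGLO1#1 and shGLO1#2. KIF20B, a cytokinesis motor, fell by 0.47 and 0.37 in the same order, and HMMR, a spindle protein, by 0.34 and 0.33. KIF4A, a motor of chromosome arms, averaged 68.9 ± 4.16 CPM in shGLO1#2 cells, against 144 ± 9.93 CPM in shNT cells, a log2 fold change of -1.06, and its value in shGLO1#1 was -0.07 (edgeR adjusted p = 0.412).

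Of 39 further replication genes, 17 fell and 2 rose in shGLO1#1 (median -0.21), while 1 fell and 11 rose in shGLO1#2 (median 0.10). In shGLO1#1 these were 43.6% and 5.13%, against 23.1% and 22.6% of all genes. In shGLO1#2 they were 2.56% and 28.2%, against 19.8% and 18.3%. GINS4, part of the replicative helicase, rose by 0.27 on the log2 scale (SE 0.09, edgeR adjusted p = 0.0286) in shGLO1#1 and by 0.34 (SE 0.09, edgeR adjusted p = 0.0105) in shGLO1#2. The shGLO1#1 call of GINS4 ended without shNT replicate 1 and without any 1 of the shGLO1#1 libraries, with edgeR adjusted p up to 0.124.

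**Figure D5:**
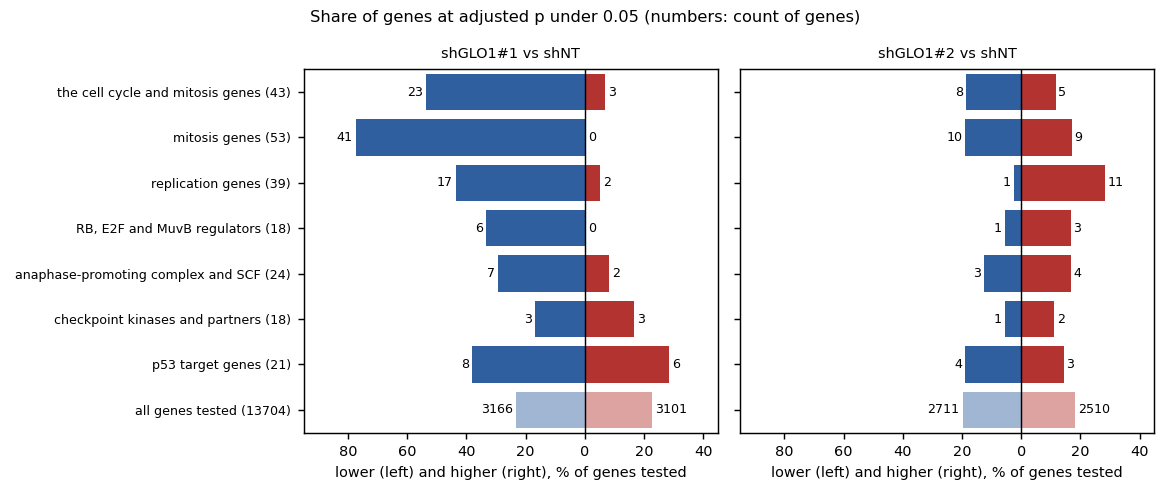
Share of tested genes at an adjusted p under 0.05 (x axis, percent, lower to the left and higher to the right of 0; numbers are gene counts) for the 43 genes and the 6 lists (y axis) in each clone against shNT, with all genes at the bottom. In shGLO1#1 cells 41 of 53 further mitosis genes fell, against 23.1% of all genes.

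Regulators that act upstream of the replication and mitosis genes formed other lists. Of 18 genes of the RB, E2F and MuvB families, 6 fell in shGLO1#1 (33.3%, against 23.1% of all genes, median -0.16). In shGLO1#2 1 fell and 3 rose (median 0.05), and these shares, 5.56% and 16.7%, were under the 19.8% and 18.3% of all genes. None of these 18 rose in shGLO1#1, at an adjusted or an unadjusted p under 0.05 or with DESeq2. Of 24 genes of the anaphase-promoting complex and of SCF ubiquitin ligases, 7 fell in shGLO1#1 (29.2%, against 23.1% of all genes). There 2 rose (8.33%, against 22.6%), with a median of -0.07. In shGLO1#2 3 fell (12.5%, against 19.8% of all genes) and 4 rose (16.7%, against 18.3%), with a median of -0.03. CDC16, a subunit of the anaphase-promoting complex, fell by 0.54 on the log2 scale in shGLO1#1 and by 0.52 in shGLO1#2. ANAPC2, the cullin of that complex, rose by 0.27 in shGLO1#2 (SE 0.07, edgeR adjusted p = 0.00908). It rose by 0.20 in shGLO1#1 (SE 0.07, edgeR adjusted p = 0.0419), a call that ended without any 1 of the shNT libraries, without shGLO1#1 replicate 2 or 3, with DESeq2 and without the filter on low counts (adjusted p of 0.056 to 0.195).

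Of 18 checkpoint genes, 3 fell and 3 rose in shGLO1#1 (median -0.07), and 1 fell and 2 rose in shGLO1#2 (median -0.01). Together 33.3% were called in shGLO1#1 and 16.7% in shGLO1#2, under the 45.7% and 38.1% called among all genes. ATM, the kinase that senses DNA breaks, rose by 0.26 on the log2 scale in shGLO1#1 (SE 0.08, edgeR adjusted p = 0.0136) and by 0.27 in shGLO1#2 (SE 0.08, edgeR adjusted p = 0.0119). The ATM calls ended without shNT replicate 1 (edgeR adjusted p of 0.0617 and 0.0564), and the first also without shGLO1#1 replicate 1 (0.0784).

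MDA-MB-231 cells carry a mutant p53, and 21 p53 target genes were tested. In shGLO1#1 8 fell (38.1%, against 23.1% of all genes) and 6 rose (28.6%, against 22.6%), with a median of 0.10. In shGLO1#2 4 fell and 3 rose (median 0.03), and these shares, 19.0% and 14.3%, were near or under the 19.8% and 18.3% of all genes. PHLDA3, an inhibitor of AKT, fell by 0.89 on the log2 scale in shGLO1#1 and by 1.16 in shGLO1#2, and FAS, a death receptor, by 0.77 and 0.81 in the same order. CCNG1, the cyclin G1 gene, rose by 0.38 in shGLO1#1 and by 0.44 in shGLO1#2. TP53I3, an oxidoreductase gene, averaged 20.5 ± 1.496 CPM in shGLO1#1 cells, against 10.3 ± 1.08 CPM in shNT cells, a rise of 1.01 on the log2 scale, and its log2 fold change in shGLO1#2 was 0.18 (SE 0.12, edgeR adjusted p = 0.27). SESN2, a stress-induced inhibitor of mTORC1 signalling, fell by 0.37 in shGLO1#1 (SE 0.12, edgeR adjusted p = 0.0256) and by 0.39 in shGLO1#2 (SE 0.12, edgeR adjusted p = 0.023). Both SESN2 calls ended without shNT replicate 1 or 2. The first also ended without shGLO1#1 replicate 2 or 3 or with library totals alone, and the second without shGLO1#2 replicate 1 or 3, with edgeR adjusted p up to 0.0951 and 0.0884.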

How the data were processed

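RNA libraries of MDA-MB-231 cells were made by the authors with an unstranded TruSeq RNA kit. Per the labels, bcl2fastq 2.17, TopHat2 2.1.1 with hg19 and HTSeq gave the gene counts, which were deposited raw. The sources used here do not give HTSeq's version, annotation or strand setting. Lines that name no gene were left out. Between 12.9 and 15.2% of alignments lay on no gene.

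Counts were tested in R 4.3.3 with edgeR 4.0.16 (quasi-likelihood, all 9 libraries, no covariate, TMM scaling, filterByExpr with a minimum count of 10 and total of 15), with Benjamini-Hochberg adjustment over all 13704 genes and an adjusted p threshold of 0.05. The standard error was taken as the size of the log2 fold change over the root of F. CPM use TMM-scaled library sizes. Role group means used log2 CPM with a prior count of 2. Scripts were tested on simulated data.

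Libraries of a group were compared for copies, and none was identical to another. Deviations from group means correlated between same-numbered libraries of shGLO1#2 and shNT (0.21, 0.19 and 0.31). The number was therefore also used as a block, over all 9 libraries, and the pairing comes from the data. Alternatives were other scaling, other filters, DESeq2 1.42.0, fits of 2 groups, the block and leaving out each library. Genes with values by library were those past both thresholds in a comparison, the 2 largest called changes of each role group, and CCND1, CDKN1A, E2F1, CDK1 and MKI67. List genes named were up to 4 called alike in both clones and up to 2 past both thresholds in 1. Some items are not reported here. Members and lists were chosen with earlier results of these data known. Overlaps of genes come from GENCODE v29 (GRCh38) names.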

Additional observations from a re-analysis of the deposited data

Results flagged for a closer look

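The 2 depleted clones differed from each other, by the direct edgeR test of shGLO1#2 against shGLO1#1, for 30 of the 43 genes. This is 69.8%, against 46.5% of all genes tested. All values are log2 differences, positive where shGLO1#2 was higher. Among the G1 genes they were 0.23 for CCND1, -2.20 for CCND2, -0.23 for CCND3 and 0.36 for CDK4. In the G1/S switch they were -0.40 for CCNE1, 0.69 for CCNE2, 0.48 for CDK2 and 0.42 for CDC25A, and among inhibitors -0.33 for CDKN1A and -0.61 for CDKN2C. The replication genes gave 0.44 for CDC6, 1.35 for CDT1, 0.63 for MCM2 and 0.34 for MCM5.

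Mitotic entry genes differed by 0.20 for CCNA2, 0.27 for CCNB1, 0.24 for CCNB2, 0.15 for CDK1 and 0.15 for FOXM1. Spindle and mitotic exit genes differed by 0.20 for AURKA, 0.53 for AURKB, 0.50 for PLK1, 0.14 for BUB1, 0.30 for CENPE, 0.29 for KIF11, 0.39 for KIF20A, 0.19 for TPX2 and 0.49 for CDC20. MKI67 differed by 0.29 and TOP2A by 0.21. Among the listed genes BUB3 (0.13) and CEP55 (0.30) were higher in shGLO1#2, and KIF4A (-0.99) and TP53I3 (-0.83) were lower.

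Calls that ended when 1 library was left out were those of CCND1 (shGLO1#1 replicate 1 or 2, shGLO1#2 replicate 3), CCND3 (shGLO1#1 replicate 2 or 3, shGLO1#2 replicate 2 or 3), CCNE1 (shGLO1#1 replicate 3), CDC25A (shGLO1#1 replicate 1 or 2, shGLO1#2 replicate 2 or 3) and CDC6 (shGLO1#1 replicate 1 or 2, shGLO1#2 replicate 3). The edgeR adjusted p of these 5 genes then reached at most 0.101, 0.0727, 0.0547, 0.12 and 0.0635. The same held for CCNA2 (shGLO1#1 replicate 1), for CDK1 and FOXM1 (any shGLO1#1 library, shGLO1#2 replicate 2 or 3), for TOP2A (shGLO1#1 replicate 1, shGLO1#2 replicate 3) and for BUB1 (every shGLO1#1 library, replicates 1 and 2 of shGLO1#2 and of shNT). These reached an edgeR adjusted p of at most 0.0516, 0.138, 0.149, 0.0718 and 0.157. The calls of CDK1, FOXM1, TOP2A and BUB1 also ended with library totals alone, and that of BUB1 with both other filters, its edgeR adjusted p reaching 0.209.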

How the results depend on the processing

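Counts of calls among the 43 genes and the lists stayed within 1.5 times of the reported ones under scaling by DESeq2's size factors, both other filters, DESeq2 and fits of 2 groups. With library totals alone, 8 of the 43 genes rose in shGLO1#2, and 22 list genes rose in shGLO1#1. With the replicate block 8 of the 43 genes rose and 13 fell in shGLO1#2. Leaving out 1 library at a time gave 1 to 3 genes higher and 19 to 25 lower in shGLO1#1, 5 to 6 higher and 7 to 10 lower in shGLO1#2, and 17 to 26 higher and 3 to 5 lower in shGLO1#2 against shGLO1#1. Of the list genes it gave 6 to 15 higher and 64 to 85 lower in shGLO1#1, and 19 to 40 higher and 16 to 19 lower in shGLO1#2.

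Among the named genes, the directions that turned were of values that had not passed the test. The leave-one-out values of CCND2 in shGLO1#2 ran between -0.15 (without shNT replicate 3) and 0.63 (without shNT replicate 2), and those of TOP2A in shGLO1#1 between -0.013 (without shNT replicate 1) and 0.14 (without shNT replicate 3). In shGLO1#2, CDC25A lay between -0.29 (without shGLO1#2 replicate 3) and 6e-04 (without shGLO1#2 replicate 1). E2F1 there lay between -0.14 (without shGLO1#2 replicate 3) and 0.028 (without shGLO1#2 replicate 2). The cause was not tested. The direction of GLO1 and its call held in all alternatives (-2.29 to -2.21 in shGLO1#1 and -4.46 to -4.39 in shGLO1#2).

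Same-numbered libraries of shGLO1#1 and shNT correlated at -0.03, 0.06 and 0.25, and those of the clones at 0.20, 0.07 and 0.34, so not every pair was over 0.1 and the block is given here as a hint from the data. With the replicate block, shGLO1#1 had 28 genes lower and 3 higher than shNT, and the 5 added were CCND1, E2F1, MCM2, MCM5 and PCNA (edgeR adjusted p of 0.00617 to 0.0446). Between the clones it left 26 higher and 7 lower in shGLO1#2. Each library matched its own number best in 1 of 3 cases for shGLO1#1 with shNT and in 3 of 3 for the clones. Beyond the 8 genes named in the report, the block changed no call of the 43 genes in shGLO1#2 against shNT.

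Low counts limit CCND2, with 3 to 9 counts in shNT libraries, and CDKN1C, at 0.993 to 2.96 CPM. With 1 clone for each condition, differences between clones and between hairpins cannot be told apart.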
